A study of Mus musculus with 4 samples.

Results

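Expression of 10 genes, the simple keratins Krt7, Krt8, Krt18 and Krt19 and the transcriptional regulators Gata3, Tfap2a, Tfap2b, Tfap2c, Elf5 and Tead4, was compared between the Undiff and Day4 states of mouse embryonic stem cells (ESCs). The genes were taken by symbol from the 24421 genes of the count files, and all 10 were found there. The libraries were 2 Undiff and 2 Day4 samples from R1, an established mouse ESC line, each pair being biological replicates that were grown and treated separately. Undiff is R1 cells kept with leukaemia inhibitory factor in the methods, and embryoid bodies in the sample labels. Day4 is R1 embryoid bodies, that is, cell aggregates grown without this factor for 4 days and then given retinoic acid (RA) for a further 4 days, at 2 µM in the methods and the series description and at 2 mM in the treatment label. The states therefore differ in the factor, in aggregation by the account of the methods, in time and in RA, and these cannot be told apart. No allele or transgene is named for either state.

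Keratins are intermediate filament proteins that polymerize as pairs of a type I and a type II chain. Krt8 and Krt7 are type II and Krt18 and Krt19 are type I, and these are the keratins of simple, single-layered epithelia, including the trophectoderm of the blastocyst, from which the trophoblast of the placenta arises. Tead4, Tfap2c, Gata3 and Elf5 are transcription factors known for roles in specifying or maintaining trophoblast, and all of them also act elsewhere, as do Tfap2a and Tfap2b, which are best known from neural crest and surface ectoderm.

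The Illumina TruSeq libraries held between 32099074 and 47730944 counts on genes. Counts were scaled by TMM and are given as normalized counts, and the states were tested with the quasi-likelihood method of edgeR over the 19891 genes with a count. To be called a differentially expressed gene (DEG), a gene needed an adjusted p of 0.05 or less, a log2 fold change of 1 or more in either direction and a mean of 5 or more normalized counts. The 10 markers of ESCs that were examined, Pou5f1 and Nanog among them, were all DEGs lower in Day4, and the 6 RA response genes examined were all DEGs higher in Day4. In these bulk samples, fewer cells of a type and less RNA per cell cannot be told apart. A count of 3 or fewer was treated as the floor, and it covers counting error only.

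Promoters are shown for Krt8 and Krt18, a neighbouring pair that was not called, and for Krt7 and Gata3, which rose. The local sequence can thus be read beside the values given later. Tfap2b also rose, and its promoter is not printed. They are the RefSeq windows of GRCm38.p6, 250 bases before to 50 after the annotated start, printed 5′ to 3′ on the strand of the gene. Capitals mark each match to GCCNNNGGC, a core sequence bound by AP-2 factors, the family of Tfap2a, Tfap2b and Tfap2c. The letters read the same on both strands, and overlaps with other motifs are not given.
Krt8, chr15:102004293-102004592, minus strand: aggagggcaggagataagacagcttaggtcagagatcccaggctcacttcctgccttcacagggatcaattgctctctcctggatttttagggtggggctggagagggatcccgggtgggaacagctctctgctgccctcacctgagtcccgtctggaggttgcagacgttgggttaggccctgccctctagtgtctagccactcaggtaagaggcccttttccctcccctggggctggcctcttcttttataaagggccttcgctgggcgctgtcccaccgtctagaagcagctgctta
Krt18, chr15:102027966-102028265, plus strand: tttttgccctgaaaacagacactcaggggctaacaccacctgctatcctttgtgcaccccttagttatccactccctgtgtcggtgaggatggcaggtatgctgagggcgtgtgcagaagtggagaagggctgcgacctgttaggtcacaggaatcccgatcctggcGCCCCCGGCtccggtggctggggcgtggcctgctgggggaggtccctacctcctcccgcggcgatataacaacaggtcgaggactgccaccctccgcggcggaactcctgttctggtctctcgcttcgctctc
Krt7, chr15:101412153-101412452, plus strand: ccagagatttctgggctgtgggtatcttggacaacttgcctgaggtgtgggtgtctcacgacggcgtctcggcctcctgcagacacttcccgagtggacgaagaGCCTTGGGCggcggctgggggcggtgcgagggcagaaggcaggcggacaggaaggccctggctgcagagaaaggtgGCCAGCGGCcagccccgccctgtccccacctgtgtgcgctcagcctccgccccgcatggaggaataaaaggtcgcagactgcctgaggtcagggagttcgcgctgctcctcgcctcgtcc
Gata3, chr2:9878551-9878850, minus strand: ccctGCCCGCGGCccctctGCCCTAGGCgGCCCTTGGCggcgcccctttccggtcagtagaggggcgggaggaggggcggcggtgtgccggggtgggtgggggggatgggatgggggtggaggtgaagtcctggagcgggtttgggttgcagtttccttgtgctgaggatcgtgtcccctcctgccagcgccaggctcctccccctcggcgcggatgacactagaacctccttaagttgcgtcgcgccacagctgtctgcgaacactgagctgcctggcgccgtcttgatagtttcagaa

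The table held 9 promoters for 7 of the 10 genes, Tfap2a and Elf5 having more than 1, and 3 of the 9 held the letters at least once, beside 16.6% of all 32851 promoters of the same length. Gata3 held 3 matches, starting 246, 231 and 221 bases before the RefSeq start, Krt7 held 2 matches, at 146 and 70 bases, and Krt18 held 1 match, at 83 bases. The windows of Gata3, Krt7, Tfap2a, Tfap2b and Elf5 lie inside the gene spans given below, which begin further upstream. No match lay in the windows of Krt8, Tfap2a, Tfap2b or Elf5, of which Tfap2b rose. The windows of Gata3 and Krt7 were 67.3% and 66.3% G or C, that of Krt18 was 61.3%, that of Krt8 was 58.0% and that of Tfap2b was 48.3%. Promoters of Krt19, Tfap2c and Tead4 were not analysed here. A match is a description of the letters and is not evidence of binding.

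Krt7, Krt19, Gata3 and Tfap2b rose in Day4, Tfap2c and Tead4 fell, and Krt8, Krt18, Tfap2a and Elf5 were not DEGs. Thus 4 of the 10 genes were DEGs higher in Day4, where 22.2% of all genes tested were, and 2 were DEGs lower in Day4, where 20.6% of all genes tested were. In either direction this made 6 of the 10, beside 42.8% of all genes, and without the minimum fold change the count was again 6, beside 71.9% of all genes. Their median log2 fold change was 0.78, compared with -0.027 over all genes tested. Undiff and Day4 values were fully separate for 9 of the 10 genes, the exception being Krt18, and for 85.4% of all genes tested. All 10 genes passed the minimum mean normalized count of 5, Tfap2b through its Day4 values alone.

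**Figure D1:**
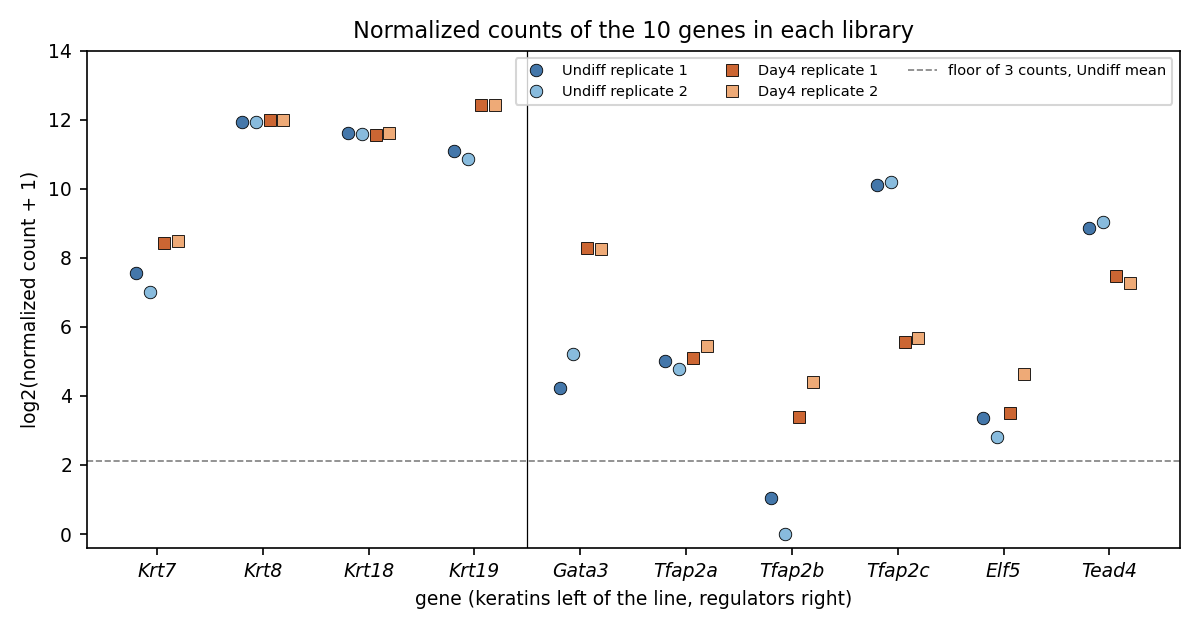
Normalized counts of the 10 genes on a log2(count + 1) axis, with 1 point per library, circles for Undiff and squares for Day4; the dashed line is the floor of 3 counts as scaled in Undiff. The points of Krt8 and Krt18 lie together in all 4 libraries, those of Krt7, Krt19, Gata3 and Tfap2b lie higher in Day4, and those of Tfap2c and Tead4 lie lower in Day4.

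Krt8 and Krt18 form the first keratin pair of the embryo. Their genes lie 23.7 kb apart on chromosome 15, Krt8 at 101996698 to 102004482 on the minus strand and Krt18 at 102028180 to 102032027 on the plus strand of GRCm38. Values are given for replicate 1 and then replicate 2 of each state. Krt8 had 3938 and 3910 normalized counts in Undiff, and 4047 and 4085 in Day4. Krt18 had 3138 and 3052 in Undiff, and 3037 and 3120 in Day4. Both Day4 libraries were slightly above both Undiff libraries for Krt8, and the states overlapped for Krt18. The log2 fold change of Krt8 was 0.051 (95% interval -0.044 to 0.15, edgeR adjusted p = 0.30), and that of Krt18 was -0.0074 (-0.11 to 0.095, edgeR adjusted p = 0.89). A change of 2-fold in either direction therefore lies outside both intervals. The sign for Krt18 is not fixed by these data, since it was positive with library totals in place of TMM (0.059). The authors left out fragments with more than 1 alignment. The annotation holds a processed pseudogene of Krt8 and a noncoding gene, Gm36026, that shares 101 exonic bases with Krt8 on the opposite strand, and their part in its counts was not tested.

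The counts of Krt8 over those of Krt18, a ratio taken within each library that needs no scaling, were 1.26 and 1.28 in Undiff, and 1.33 and 1.31 in Day4. The ratio was higher in both Day4 libraries, by 0.059 on the log2 scale (p = 0.333 in a two-sided exact permutation test, which cannot go lower with 2 libraries against 2). Counting error alone gives a standard error between 0.030 and 0.038 on this scale for a single library. Centred log2 normalized counts were also compared over the 4 libraries among genes with a mean of at least 1 CPM, a count scaled to the library total. The nearest genes to Krt8 were Ptcd1, Plxna3 and Cul1, and those to Krt18 were Tyro3, Psmb2 and Tigd2. Krt18 ranked 166 of 13737 in its distance to Krt8, with a root mean square difference of 0.0326, and Krt8 ranked 150 in its distance to Krt18. With 2 states and 4 libraries, this order separates genes mainly by their fold change.

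Krt19, a type I chain that has almost no tail domain, lies on chromosome 11 (100140810 to 100148665, minus strand). It had 2187 and 1862 normalized counts in Undiff, and 5499.8 and 5546 in Day4. All Day4 values were above all Undiff values, and the spread was larger in Undiff. The means rose from 2025 ± 230.2 to 5523 ± 32.3 (SD, n = 2 each), and the log2 fold change was 1.45 (standard error 0.064, edgeR adjusted p = 1.1e-10), or 2.72-fold. Leaving out single libraries gave values from 1.34 to 1.57.

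Krt7, a type II chain of ducts and of trophoblast, lies on chromosome 15 (101411043 to 101430313, plus strand). It had 188 and 128 normalized counts in Undiff, and 342 and 355 in Day4. The states did not overlap, and Undiff replicate 1 lay closer to Day4 than replicate 2 did. The log2 fold change was 1.13 (standard error 0.14, edgeR adjusted p = 5.6e-06), with a 95% interval of 0.83 to 1.43 that includes the minimum of 1. Without Undiff replicate 2 it was 0.90 and Krt7 was not a DEG, and it was not called either by a test against a fold change of 2 (glmTreat in edgeR).

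Levels of different genes were compared as FPKM, fragments scaled to the length of annotated exon and to the library total after TMM. In Undiff, Krt18 was at 57.5 ± 1.12 FPKM, Krt8 at 53.5 ± 0.268, Krt19 at 34.3 ± 3.90 and Krt7 at 1.03 ± 0.275 (SD, n = 2 each). In Day4, Krt19 was at 93.6 ± 0.548 FPKM, Krt18 at 57.2 ± 1.10, Krt8 at 55.5 ± 0.371 and Krt7 at 2.27 ± 0.0605 (SD, n = 2 each). Krt19 thus went from the third of these keratins to the first, while Krt18 stayed just above Krt8, an order that depends on the exon lengths taken from the annotation. In Day4, 97.0% of the genes with a length had a lower FPKM than Krt19. Krt19 made up 24.7% and 22.1% of the summed FPKM of the 4 keratins in Undiff, and 45.0% and 44.7% in Day4. The type I chains exceeded the type II chains by 1.74 and 1.63 times in Undiff, and by 2.61 and 2.62 times in Day4, and the gap between the states was larger than the spread of the replicates.

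**Figure D2:**
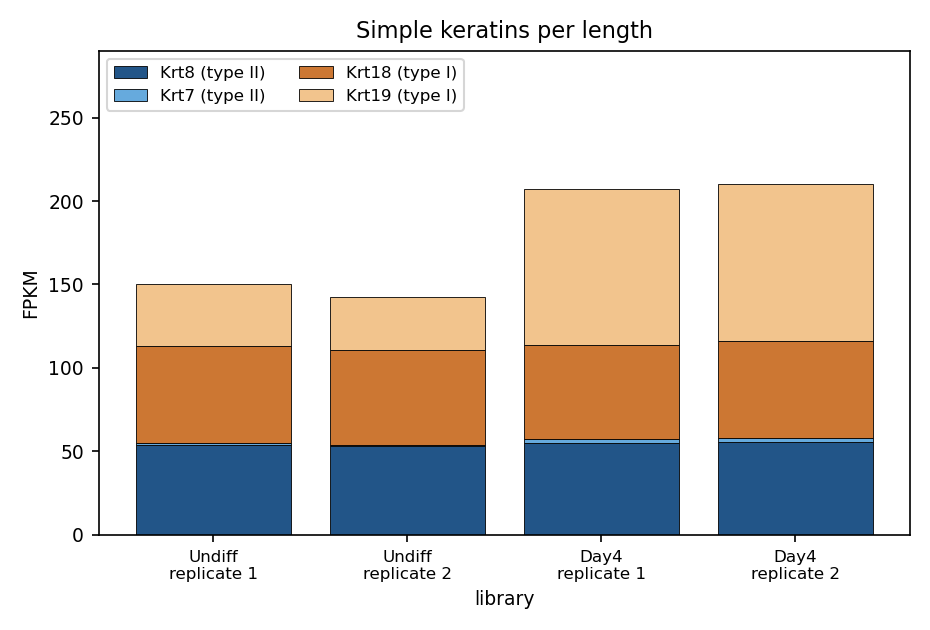
Stacked bars of the FPKM of the simple keratins in each library, type II chains in blue and type I chains in orange. The Krt8 and Krt18 segments have nearly the same height in all 4 libraries, and the Krt19 segment grows from between 31.6 and 37.1 FPKM in Undiff to between 93.2 and 94.0 FPKM in Day4.

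Genes that link keratins to junctions and genes of the epithelial state were examined beside the keratins. Of 13 desmosome and keratin-linker genes, 7 were DEGs lower in Day4 and 1 was higher (median log2 fold change -1.59, or -1.35 without Dsg3, whose libraries were all at the floor). Dsc2, a desmosomal cadherin, went from 451 ± 1.68 to 2045 ± 55.2 normalized counts (log2 fold change 2.18), and Pkp3, a plakophilin, from 427 ± 44.8 to 31.3 ± 1.38 (-3.75) (SD, n = 2 each). Of 17 epithelial genes, 16 were DEGs lower in Day4 and 1 was higher, with a median log2 fold change of -2.56. Cdh1, which encodes E-cadherin, went from 44650.2 ± 513 to 909.6 ± 210.9 normalized counts (SD, n = 2 each), with a log2 fold change of -5.60 (edgeR adjusted p = 2.0e-14). Esrp2, a splicing regulator of epithelia, had the smallest fall of those with a mean of at least 1 CPM (-1.05). Ehf, an ETS factor named after its values were seen, was the gene that rose, from 5.21 and 14.4 to 25.1 and 20.7 normalized counts. In the same libraries Krt8 and Krt18 were not called and Krt19 rose.

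Markers of other cell types that carry simple keratins were examined too, and they went in both directions. Of the 5 mesothelium markers in the count files, 4 were DEGs higher and 1 was lower in Day4, and their summed level ranged from 1104 to 1175 normalized counts in Undiff and from 19641 to 19651 in Day4. Most of the Day4 sum was Wt1, a zinc-finger factor of mesothelium and kidney, which went from 294 ± 8.99 to 14014 ± 109.8 normalized counts (SD, n = 2 each). Msln, which encodes mesothelin, fell from 231 ± 29.7 to 7.91 ± 3.59. Of 13 endoderm markers, 10 were DEGs higher and 2 were lower in Day4, Amn among the lower (log2 fold change -4.72). Their sums ranged from 2424 to 2717 normalized counts in Undiff and from 24018 to 24106 in Day4. Most of the Day4 sum was Gata4, with 9528 and 9714 normalized counts, and Gata6, with 10571 and 10070. Hnf4a, a factor known from visceral endoderm and liver among other tissues, had 59.4 and 49.1 normalized counts in Undiff, and 35.5 and 61.4 in Day4. No marker of either list that was in the count files was at the floor in all libraries, and their part in the rise of the keratins was not tested.

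The regulators were expressed below the keratins Krt8, Krt18 and Krt19 in both states. In Undiff, Tfap2c was at 9.34 ± 0.359 FPKM, Tead4 at 3.69 ± 0.348, Gata3 at 0.223 ± 0.107, Tfap2a at 0.171 ± 0.0208 and Elf5 at 0.0771 ± 0.0241 (SD, n = 2 each). In Day4, Gata3 was at 2.56 ± 0.0549 FPKM, Tead4 at 1.24 ± 0.122, Tfap2c at 0.394 ± 0.0271, Tfap2a at 0.227 ± 0.0403, Elf5 at 0.172 ± 0.0948 and Tfap2b at 0.0629 ± 0.0320 (SD, n = 2 each). Gata3 thus took the first place among them that Tfap2c had in Undiff. Gata3 and Tfap2a in Undiff, and Tfap2a and Elf5 in Day4, did not differ beyond their spread.

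Tfap2c, an AP-2 factor of trophoblast and germ cells, fell most among the regulators. It lies on chromosome 2 (172549593 to 172558622, plus strand) and had 1115 and 1177 normalized counts in Undiff, and 46.0 and 50.7 in Day4. The states were far apart and the replicates close. The means went from 1146 ± 44.1 to 48.3 ± 3.33 (SD, n = 2 each), and the log2 fold change was -4.55 (standard error 0.11, edgeR adjusted p = 2.3e-13), or 23.5 times lower in Day4. Leaving out single libraries gave values from -4.67 to -4.50.

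Tfap2a lies on chromosome 13 (40715302 to 40738376, minus strand) and was low in both states. It had 31.3 and 26.3 normalized counts in Undiff, and 33.4 and 43.0 in Day4. The states did not overlap, but the step between the nearest libraries was smaller than the spread in either state. The log2 fold change of 0.42 (95% interval -0.18 to 1.03, edgeR adjusted p = 0.18) was not called, and its interval reaches past 2-fold higher. The annotation holds 3 antisense genes that share exonic bases with Tfap2a and have no counts in the files. The kit that the methods name for these libraries does not mark the strand, so fragments of Tfap2a and of these partners cannot be told apart where they overlap.

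Tfap2b, on chromosome 1 (19208914 to 19238576, plus strand), had 1 and 0 counts in Undiff, which is below the floor, and 9 and 26 counts in Day4. In normalized counts these were 1.04 and 0 in Undiff, and 9.40 and 19.96 in Day4. Day4 was at least 4.37-fold higher than the floor of 3 counts per library, as scaled in Undiff (edgeR adjusted p = 0.00049). Both Day4 libraries were above the floor, and Day4 replicate 2 was the higher. Without Day4 replicate 2, Tfap2b no longer passed the minimum mean count.

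Among these AP-2 genes, Tfap2c had the largest share in both states, and its share was smaller in Day4. Tfap2c made up 97.9% and 98.4% of the summed FPKM of Tfap2a, Tfap2b and Tfap2c in Undiff, and 61.0% and 54.7% in Day4. The sum itself was 9.28 and 9.75 FPKM in Undiff, and 0.614 and 0.754 in Day4. With Tfap2e included, which was at 0.547 and 0.552 FPKM in Undiff, the share of Tfap2c was 92.5% and 93.1% in Undiff, and 59.7% and 54.0% in Day4. Of the other 7 AP-2 genes and AP-2 cofactors examined, 2 were DEGs higher in Day4 and 1 was lower, with a median log2 fold change of -0.25. Tfap2e, with 1 count in each Day4 library, was at least 15.8-fold lower there, and Tfap2d was at the floor in all libraries. Kctd1 and Kctd15, whose proteins are known to repress AP-2 activity, rose by log2 fold changes of 3.99 and 1.87.

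Neural crest and surface ectoderm markers, types in which Tfap2a and Tfap2b are known, were counted as well. Of 14 neural crest markers, 8 were DEGs higher and 3 were lower in Day4, with sums from 2801 to 2903 normalized counts in Undiff and from 11173 to 11518 in Day4. Sox9 rose by a log2 fold change of 7.56, whereas Foxd3, with 1 and 0 counts in Day4, was at least 144.8-fold lower. Of 7 surface ectoderm markers, 3 were DEGs higher and 1 was lower, with sums from 1555 to 1616 in Undiff and from 683 to 746 in Day4. Grhl3, which also stands in the epithelial list, was the marker called lower (log2 fold change -2.68). It made up most of the Undiff sum and went from 917 ± 32.6 to 145 ± 12.5 normalized counts (SD, n = 2 each). No marker of these lists was at the floor in all libraries, and their part in the values of Tfap2a and Tfap2b was not tested.

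Gata3, a zinc-finger factor of trophectoderm that also acts in T cells, kidney and sympathetic neurons, lies on chromosome 2 (9857078 to 9890034, minus strand). It had 17.7 and 35.9 normalized counts in Undiff, and 313 and 304 in Day4. Day4 was high in both replicates, and the Undiff replicates differed by about 2-fold at this low level. The means rose from 26.8 ± 12.9 to 309 ± 6.61 (SD, n = 2 each), and the log2 fold change was 3.55 (standard error 0.20, edgeR adjusted p = 1.4e-09). Leaving out single libraries gave values from 3.10 to 4.11. The gene 4930412O13Rik, which overlaps Gata3 on the opposite strand without sharing exonic bases, went from 4.17 and 2.39 to 32.4 and 24.6 normalized counts (log2 fold change 3.02). On the same strand, 9230102O04Rik overlaps Gata3 without shared exonic bases and had 0 and 0 normalized counts in Undiff, and 1.05 and 3.84 in Day4. Gm13256, an antisense gene without counts in the files, shares 155 exonic bases with Gata3.

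The rise of Gata3 was among rises of most of its relatives. Of 7 other GATA factors and FOG cofactors, 6 were DEGs higher in Day4 and none was lower, with a median log2 fold change of 5.97. Gata2, Gata4 and Gata6, which act in blood, heart and endoderm, rose by log2 fold changes of 5.97, 5.86 and 7.09, and Gata6 reached 10321 ± 355 normalized counts in Day4 (SD, n = 2). Gata5 rose by a log2 fold change of 7.82 and the cofactor Zfpm1 by 3.52. Gata1 was the exception, with 62.5 and 58.6 normalized counts in Undiff, and 40.7 and 47.6 in Day4. Gata4 and Gata6 also stand in the endoderm list above.

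Tead4, a DNA-binding partner of the Hippo coactivators Yap1 and Wwtr1 that is needed for trophectoderm in the embryo, lies on chromosome 6 (128224288 to 128300823, minus strand). It had 463 and 529 normalized counts in Undiff, and 178 and 154 in Day4. Both Day4 libraries were below both Undiff libraries by far more than the replicates differed. The means fell from 496 ± 46.8 to 166 ± 16.4 (SD, n = 2 each), and the log2 fold change was -1.59 (standard error 0.11, edgeR adjusted p = 1.6e-08).

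The other TEAD genes moved the opposite way or were not DEGs. Tead2 went from 3788 ± 177 to 12296 ± 244 normalized counts (log2 fold change 1.70) and Tead3 from 246 ± 9.11 to 1531 ± 23.4 (2.64), both DEGs higher in Day4 (SD, n = 2 each). Tead1 had a log2 fold change of 0.48, under the minimum. The summed FPKM of the 4 TEAD genes was 48.3 and 48.6 in Undiff, and 128 and 127 in Day4. Tead4 made up 7.13% and 8.10% of it in Undiff, and 1.03% and 0.905% in Day4. Tead2 was the most abundant TEAD gene per length in all 4 libraries, at 29.9 and 27.9 FPKM in Undiff, and 95.1 and 92.5 FPKM in Day4.

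Of 21 genes of the TEAD family, its coactivators and the Hippo pathway, 8 were DEGs higher and 4 were lower in Day4, with a median log2 fold change of 0.69, or 0.77 without Vgll2, which was at the floor in all libraries. Wwtr1, a coactivator also known as TAZ, rose by a log2 fold change of 1.81, and Yap1 had a value of 0.86, under the minimum. Vgll4, which competes with Yap1 for TEAD proteins, had the highest log2 fold change of the list (4.21). Ctgf, a known target of TEAD and Yap1, had the lowest and went from 3652 ± 137 to 266 ± 17.0 normalized counts (log2 fold change -3.77; SD, n = 2 each).

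**Figure D3:**
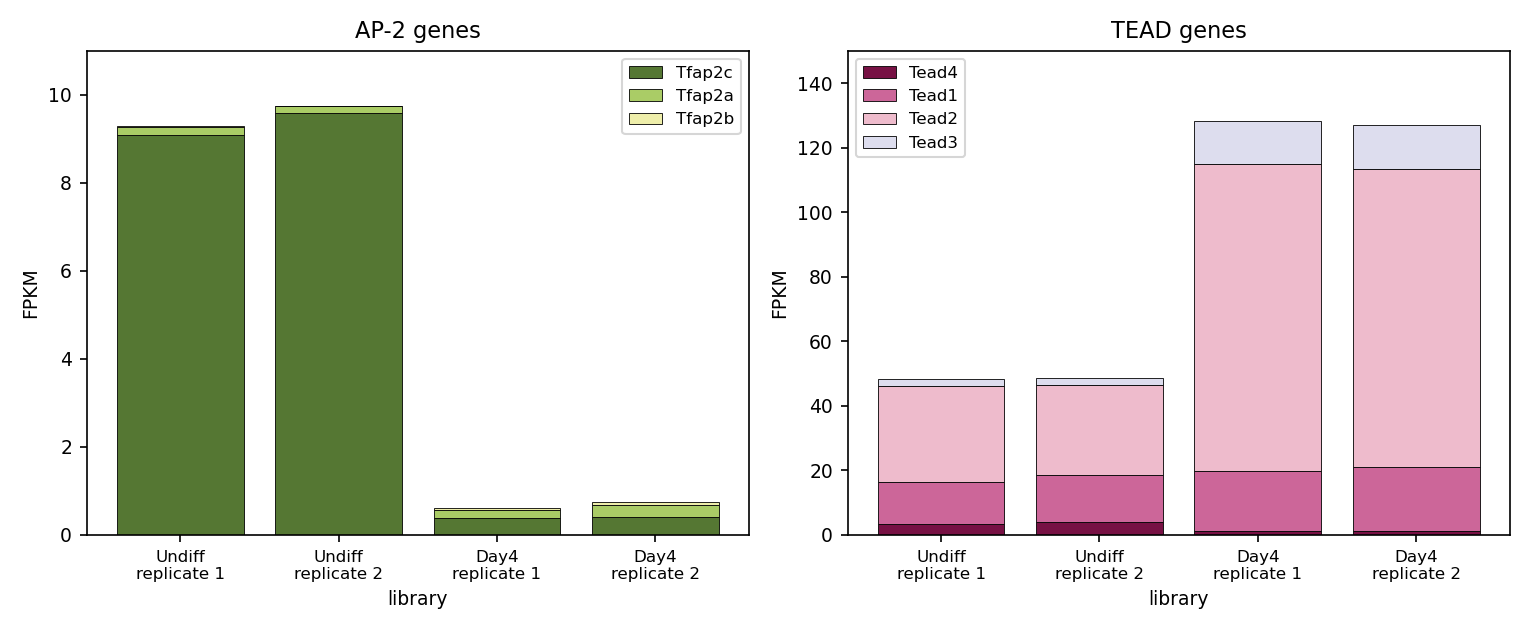
Stacked bars of FPKM in each library for the AP-2 genes Tfap2a, Tfap2b and Tfap2c on the left and for Tead1 to Tead4 on the right, with separate axes that start at 0. The AP-2 bars drop from 9.28 and 9.75 to 0.614 and 0.754 FPKM as Tfap2c falls, and the TEAD bars grow from 48.3 and 48.6 to 128 and 127 FPKM while the Tead4 segment shrinks.

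Elf5, an ETS factor of trophoblast stem cells and mammary epithelium, lies on chromosome 2 (103411688 to 103450989, plus strand) and was close to the floor. It had 9 and 5 counts in Undiff, and 10 and 31 in Day4, which are 9.38, 5.98, 10.4 and 23.8 normalized counts. Day4 replicate 2 stood apart, and Day4 replicate 1 was near Undiff replicate 1. The log2 fold change was 1.20 (95% interval 0.061 to 2.35, edgeR adjusted p = 0.053), and Elf5 was not a DEG. It was called with library totals (1.27), with a filter on low counts (1.17) and without Day4 replicate 1 (1.60), and its log2 fold change was 0.39 without Day4 replicate 2. Of 4 other Elf genes, 2 were DEGs higher and 1 was lower in Day4. Elf4 rose by a log2 fold change of 2.61, and Elf3, an epithelial member, dropped to 353 ± 46.5 normalized counts from 1569.9 ± 130.4 in Undiff (log2 fold change -2.14, SD, n = 2 each).

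**Figure D4:**
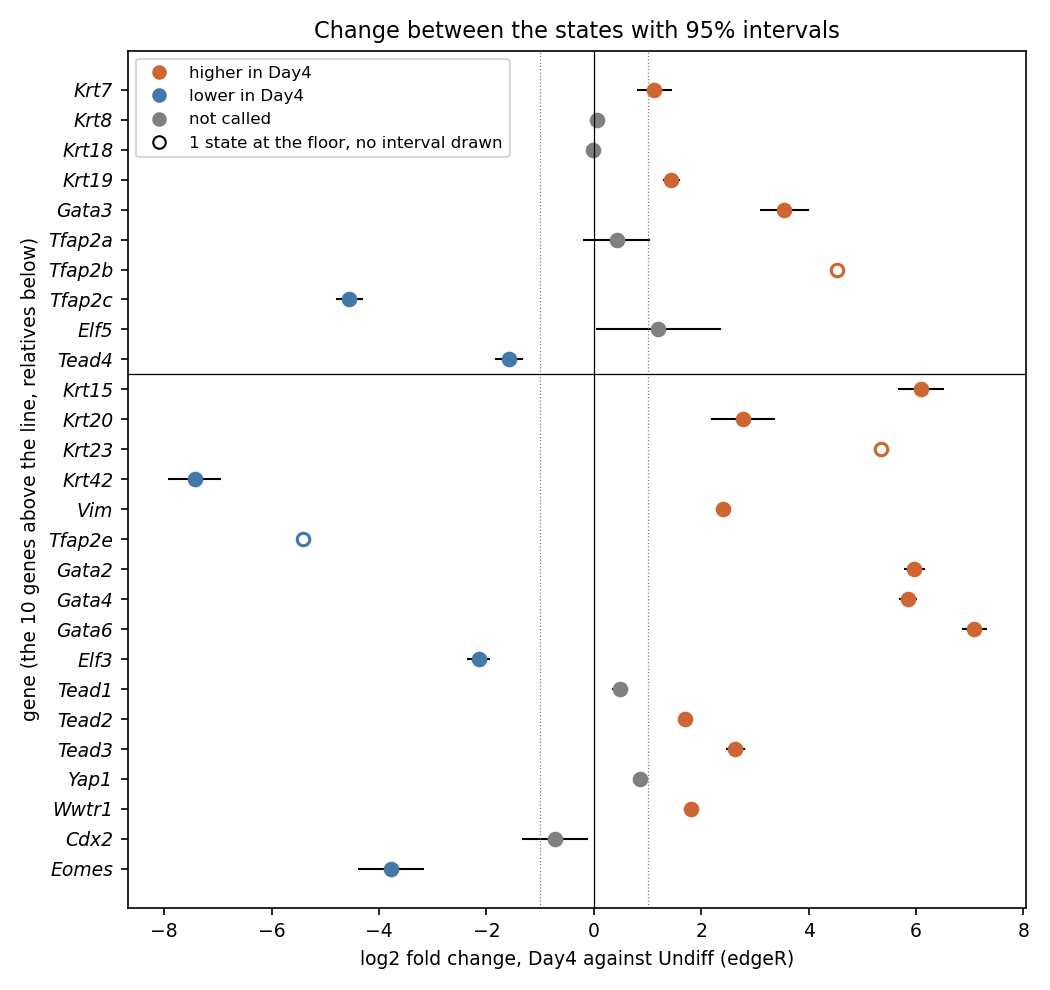
Log2 fold change of Day4 against Undiff from edgeR with 95% intervals, for the 10 genes above the line and for relatives and partners below it; dotted lines mark a fold change of 2 in either direction. Krt8 and Krt18 sit at 0 with narrow intervals, the interval of Elf5 is the widest drawn among the 10 genes, and open circles without an interval are genes at the floor in 1 state, placed at a fitted value that is not a bound.

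Since the regulators are named for trophoblast, other genes of that lineage were counted. Of 7 trophoblast stem cell genes, 2 were DEGs higher and 3 were lower in Day4, with a median log2 fold change of -0.72. Cdx2, a homeobox factor of trophectoderm, had 43.8 and 40.7 normalized counts in Undiff, and 21.9 and 28.4 in Day4 (log2 fold change -0.72, edgeR adjusted p = 0.029), under the minimum fold change. Eomes, a T-box factor of trophoblast stem cells and of mesoderm and endoderm, fell from 170.1 ± 40.9 to 12.5 ± 1.46 (SD, n = 2 each; log2 fold change -3.78, edgeR adjusted p = 2.5e-08). Ets2 had the highest log2 fold change of the list (1.62) and Esrrb, which is also a pluripotency factor, the lowest (-7.09).

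Of 16 genes of differentiated trophoblast and placenta, 12 had a count, 2 were DEGs higher and 6 were lower in Day4, with a median log2 fold change of -2.05, or -1.86 with genes at the floor in 1 state set to their bound and those at the floor in both left out. The placental hormone gene Prl3d1 and Tpbpb, Prl2c2, Synb and Ctsq were at the floor in all 4 libraries. Prl3b1, another placental hormone gene, had 0 and 0 counts in Undiff and 9 and 23 in Day4, and was a DEG at least 4.03-fold higher. Prl3b1 passed the minimum mean normalized count through its Day4 values alone. The summed level of the list ranged from 51952 to 56607 normalized counts in Undiff and from 72396 to 76988 in Day4, against the sign of the median. Most of that sum was Peg10, an imprinted gene of placenta and other tissues, with 51093 and 55699 normalized counts in Undiff and 72059 and 76687 in Day4, which was not a DEG. Plac1 rose from 16.4 ± 6.28 to 100.01 ± 4.05 normalized counts, and Ascl2, a factor of the ectoplacental cone, fell from 88.1 ± 9.52 to 9.31 ± 0.133 (SD, n = 2 each). The markers of this lineage thus moved in both directions, with 5 of 16 at the floor, and the 10 genes are described by symbol only.

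**Figure D5:**
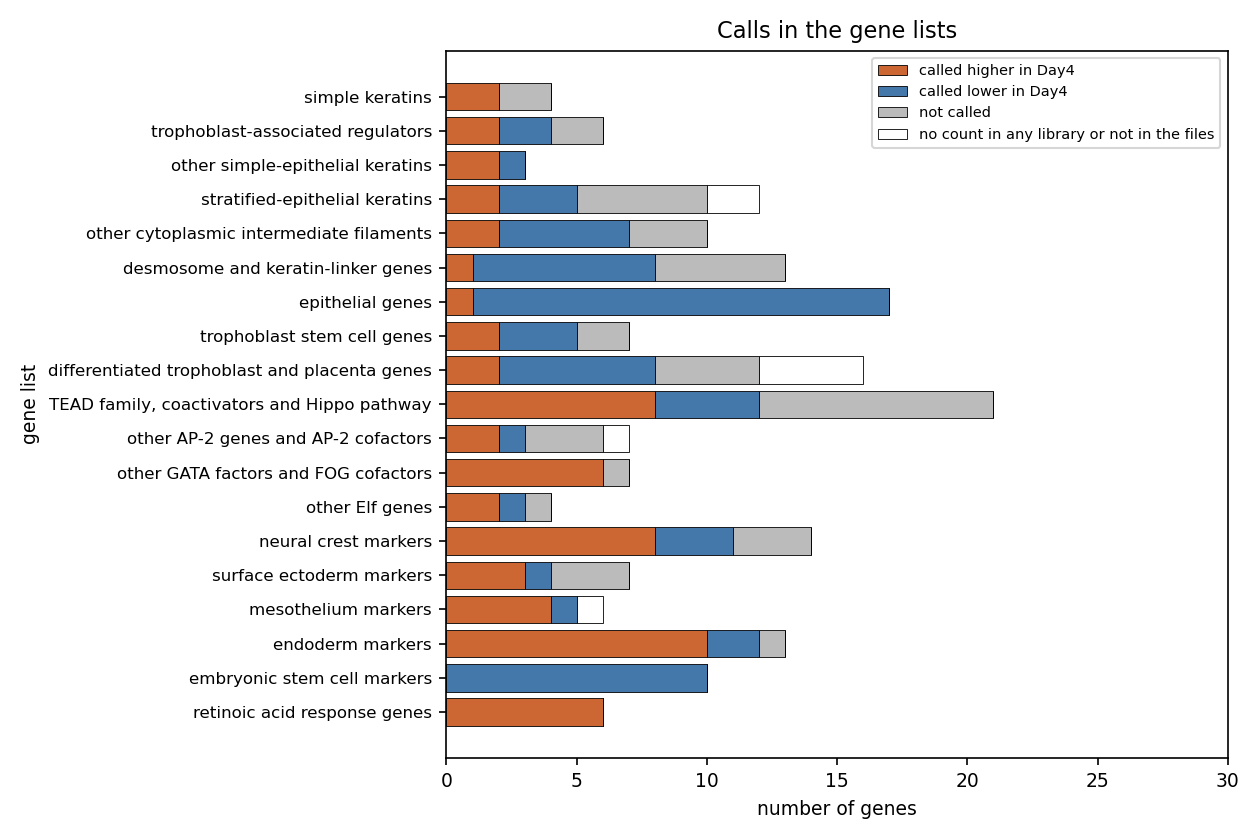
Number of genes in each list that were called higher in Day4, called lower in Day4 or not called, with genes that had no count or no row in white; some genes stand in more than 1 list. The GATA list has 6 of 7 genes called higher, the epithelial list has 16 of 17 called lower, and the simple keratins have 2 of 4 called higher and none called lower.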

How the data were processed

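RNA-seq with Illumina TruSeq was analysed in 2 Undiff and 2 Day4 libraries of R1 cells. According to the submitters' processing notes and the methods, the authors used cutadapt for trimming, STAR 2.4.2a for alignment to mm10, and counted uniquely aligned fragments with HTSeq. The deposited values are raw counts per gene. Summary lines were kept out of totals and tests: fragments on no feature were 7.50% to 13.2% and ambiguous ones 1.84% to 1.91% relative to counts on genes. The methods name TruSeq RNA kit v2, which does not mark the strand, and say that counting took the strandedness of the samples into account, with only libraries of another platform named as strand-specific. The labels name a strand-specific kit as well.

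Counts were scaled by TMM and tested with edgeR 4.0.16 in R 4.3.3 (glmQLFit with legacy = FALSE, glmQLFTest, Benjamini-Hochberg adjustment over 19891 genes with a count). DEGs needed an adjusted p of 0.05 or less, a log2 fold change of 1 or more in either direction and a mean of 5 or more normalized counts. FPKM was computed from TMM-scaled counts and the union of exons in GENCODE vM21 on GRCm38, which also gave positions. The floor was 3 counts, at 0.0629 to 0.0935 CPM. The script was tested on simulated data.

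The members and gene lists were chosen with earlier results of these data known. All 10 members were named, with relatives or partners of the members. The called genes of highest and lowest log2 fold change at a mean of at least 1 CPM were named for the lists described. The lists of ESC markers and RA response genes were the exceptions, and Nanog was named outside this rule. Pou5f1, Ehf, Hnf4a, Gata1, Dsg3, Vgll2, Prl3b1, Peg10, Krt80, 4930412O13Rik, 9230102O04Rik and the genes at the floor were named after their values were seen. Alternatives were DESeq2 1.42.0, its size factors, library totals, filterByExpr, a replicate block, thinning to the smallest total, other fold thresholds and leaving out each library. With 2 libraries a group, p-values rest on a spread shared across genes.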

Additional observations from a re-analysis of the deposited data

How the results depend on the processing

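Krt8, Krt18, Tfap2a, Krt19, Gata3, Tfap2c and Tead4 kept their call under all alternatives run. Krt18, which was not called, changed sign with library totals (log2 fold change 0.059), without Undiff replicate 1 (0.013) and without Day4 replicate 1 (0.011), and it ranged from -0.058 to 0.013 with single libraries left out. Leaving out single libraries gave 3 to 5 members higher and 2 lower, 4195 to 4439 genes higher and 3889 to 4170 lower, and a Krt8 to Krt18 log2 ratio difference of 0.044 to 0.074. Without a minimum fold change, 7305 genes were higher and 7004 lower, by construction, and 4 members were higher and 2 lower.

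Same-numbered libraries did not deviate together (correlation of deviations -0.010), and 2 pairs do not show a pairing. With the replicate block, 5 members were higher, Elf5 being added (log2 fold change 1.13, edgeR adjusted p = 0.049), and 2 were lower, and 4414 genes were higher and 4101 lower. It changed no other member's call. Elf5 was also called with the legacy quasi-likelihood moments of edgeR (1.19), an alternative chosen after seeing the data. DESeq2 gave 4 members higher and 2 lower, with Elf5 not called (adjusted p = 0.27 or 0.28). The cause was not tested. With filterByExpr Tfap2b was not tested. Thinning to the smallest total left the same counts of 4 and 2. Elf5 and Tfap2b had 31 counts or fewer in each library.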

Other observations

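Keratins outside the simple-epithelial set changed in both directions. Of 45 such genes in the count files, 3 were DEGs higher and 9 were lower in Day4, and 23 were at the floor in all libraries. Krt15, a keratin of basal cells, went from 7.84 ± 0.764 to 540.5 ± 9.74 normalized counts (log2 fold change 6.09), and Krt42 from 635 ± 64.3 to 3.62 ± 0.783 (-7.43) (SD, n = 2 each). Of 3 other simple-epithelial keratins, 2 were DEGs higher and 1 was lower. Krt20 went from 16.3 ± 7.86 to 114.9 ± 5.85 normalized counts (SD, n = 2 each), and Krt23 was at least 21.9-fold higher in Day4, with 3 and 0 counts in Undiff. Krt80 was at least 4.47-fold lower in Day4, with 13 and 9 counts in Undiff and 3 and 0 in Day4.

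Among 10 other cytoplasmic intermediate filament genes, 2 were DEGs higher and 5 were lower in Day4, with a median log2 fold change of -0.74. Vim, which encodes the vimentin of mesenchymal cells, went from 2835 ± 111 to 14956 ± 186 normalized counts, and Ina, a neuronal filament gene, from 1724 ± 59.5 to 38.7 ± 5.85 (log2 fold change -5.49) (SD, n = 2 each).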
